A study of Homo sapiens with 9 samples.

Results

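The ATP-binding cassette (ABC) drug efflux transporters are membrane pumps that use ATP to move drugs, conjugates and lipids out of cells. The 10 genes described here, ABCB1, ABCB4, ABCC1, ABCC2, ABCC3, ABCC4, ABCC5, ABCC6, ABCC10 and ABCG2, were taken by symbol from a table of 60591 gene symbols, and all 10 were present. Of these, 9 had enough counts for the test across genes, and ABCB4 did not. The question was how the transporter genes of an intestinal epithelial line respond to chemicals that activate hypoxia-inducible factor (HIF) signaling.

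Messenger RNA was sequenced in undifferentiated, proliferating Caco-2 cells (uCaco-2), a human colon adenocarcinoma line. Cells were kept for 24 h in medium with 300 μM cobalt (II) chloride (CoCl2), in medium with 5 μM of an oxyquinoline derivative (OD), or in fresh medium as control, and all 3 media contained 0.5% DMSO. Each condition had 3 libraries, described by the study as biological replicates of this single line, with 15998136 to 24209427 counts per library. The control libraries are shared by both comparisons with control cells.

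Of 10 markers of intestinal epithelium, EPCAM, CDH1, VIL1, KRT8, KRT18, CDX2 and CDH17 each had at least 786 counts in every library, while KRT20 had 17 to 132 counts, LGALS4 5 to 33 and CDX1 none. VIL1, the villin of microvilli, and KRT20 fell with CoCl2, with log2 fold changes of -2.45 and -1.44. LGALS4 rose with CoCl2, with a log2 fold change of 1.66 (adjusted p = 0.0360), at low counts that overlapped those of control cells. EPCAM, CDH1, KRT8, KRT18, CDX2 and CDH17 had log2 fold changes from 0.18 for CDX2 to 0.76 for CDH17, and none was called. Of 10 markers of fibroblasts, leukocytes and endothelium, COL1A2 and THY1 had at most 1 count in any library, PTPRC at most 3 and CD3E at most 6. COL1A1 had 135 to 480 counts, PDGFRB 8 to 127, CD14 35 to 101 and PECAM1 20 to 55, and VWF and CDH5 had at most 20 and 11. Against control cells, PDGFRB fell and VWF rose with CoCl2, with log2 fold changes of -2.31 and 1.61. CD14 fell with OD, with one of -1.08. The summed level of these 10 markers was 24.9 to 30.5 CPM in control cells, 18.6 to 19.1 with CoCl2 and 32.4 to 33.6 with OD. That of the epithelial markers was 9908 to 13256 CPM. The part of these markers in the transporter results was not tested. Levels are given in CPM, the count relative to the library total after TMM factors have corrected that total for shifts in composition. These factors were 0.770 to 0.795 with CoCl2, 1.11 to 1.12 in control cells and 1.14 to 1.15 with OD. Under library-size scaling, which leaves these factors out, the median change over all tested genes with CoCl2 was -0.55 in place of -0.049 on the log2 scale. The marker changes above used TMM factors. Their values under library-size scaling are not given here, so the direction of the small ones with CoCl2 is uncertain. A gene was called by edgeR's quasi-likelihood test if its adjusted p was below 0.05 and its level changed by more than 1 on the log2 scale, and "rose" and "fell" are used only for such genes. Changes that passed the adjusted p but not the fold change are given by their values.

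In enterocytes, P-glycoprotein (ABCB1), the breast cancer resistance protein (ABCG2) and the multidrug resistance protein MRP2 (ABCC2) sit in the apical membrane and return substrates to the gut lumen. MRP3 (ABCC3) sits in the basolateral membrane and passes conjugates toward the blood. The MRP proteins mostly carry organic anions, among them conjugates of glutathione, glucuronate and sulfate, and several also carry cyclic nucleotides.

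With CoCl2, ABCC2 and ABCC5 rose and ABCC3, ABCC6 and ABCC10 fell. ABCC5 also rose with OD. None of the 9 fell with OD by edgeR or DESeq2, and 3 were lower at an unadjusted p below 0.05. The number called with CoCl2 was 5 of the 9 tested members, 2 higher and 3 lower. Over all 15944 tested genes, 43.2% were called with CoCl2, 19.9% higher and 23.4% lower, or 3167 and 3724 genes, and library-size scaling gave 1833 higher and 5839 lower. With OD 1 of the 9 members was called, against 13.3% of all tested genes, 9.09% higher and 4.16% lower. By the adjusted p alone, 8 of the 9 members passed with CoCl2, against 83.2% of all tested genes, and 6 of the 9 with OD, against 65.6%. Libraries of the 2 groups did not overlap for 8 of the 9 members with CoCl2, against 83.4% of all tested genes, and for 7 of the 9 with OD, against 67.9%. The median log2 fold change of the 9 was 0.12 with CoCl2, which turned to -0.39 under library-size scaling, and 0.041 with OD. That of all tested genes was -0.049 with CoCl2, or -0.55 under library-size scaling, and -0.010 with OD.

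**Figure D1:**
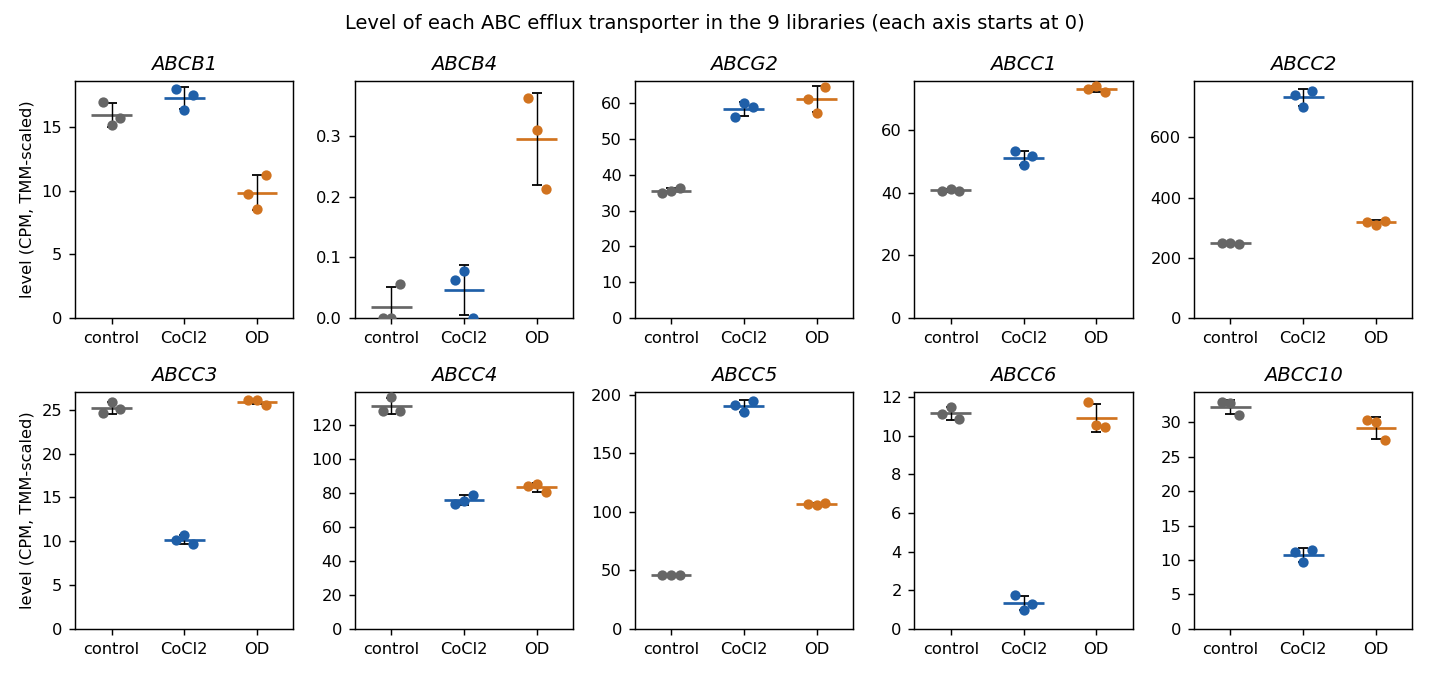
Level of each of the 10 transporters in CPM (y axis, from 0, its own scale per panel) in the control, CoCl2 and OD libraries. Points are single libraries, colored lines are means and black bars are the SD of 3 libraries. ABCC2 and ABCC5 are highest with CoCl2, ABCC3, ABCC6 and ABCC10 are lowest with CoCl2, and ABCB1 is lowest with OD.

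ABCC2 (GRCh38 chromosome 10, plus strand, 99782640 to 99852594) encodes MRP2, which exports bilirubin glucuronides and glutathione conjugates across apical membranes. It measured 250, 249 and 246 CPM in the control libraries, 742, 701 and 755 CPM with CoCl2, and 321, 310 and 323 CPM with OD. Every CoCl2 library lay above every OD library, and every OD library above every control library. The rise with CoCl2 was 2.95-fold, a log2 fold change of 1.56 (standard error 0.040, adjusted p = 5.04e-43). Under library-size scaling the log2 fold change with CoCl2 was 1.06, still called but close to the fold change required. With OD the level was 1.28-fold higher, a log2 fold change of 0.35 (standard error 0.040, adjusted p = 8.75e-12), which did not reach the fold change required.

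ABCC5 (chromosome 3, minus strand, 183919934 to 184017939) encodes MRP5, an exporter of cyclic nucleotides and nucleotide analogs. The control libraries held 46.4, 45.9 and 46.3 CPM, the CoCl2 libraries 192, 185 and 194 CPM, and the OD libraries 107, 106 and 107 CPM. No libraries of different conditions overlapped. It rose 4.12-fold with CoCl2, by 2.04 on the log2 scale (standard error 0.048, adjusted p = 2.28e-45), and 2.31-fold with OD, by 1.21 (standard error 0.048, adjusted p = 1.09e-31). It was the only one of the 10 transporters called with both treatments under the filter used. An antisense gene, ABCC5-AS1, shares no exonic base with it and had at most 2 counts in any library.

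The promoters of the called members bear on whether the members that moved together share short motifs. Those with a window in the RefSeq set used here are shown. Each is the 250 bases before the start nearest the canonical transcript on GRCh38.p14, read 5′ to 3′ on the strand of the gene. Capitals mark the HIF core motif ACGTG or GCGTG and the antioxidant core TGACNNNGC, on either strand. The GCGTG form is also the core bound by the aryl hydrocarbon receptor. RefSeq windows were matched for 7 of the 10 members, and the set used held none for ABCB4, ABCC1 and ABCC3. ABCC3, which fell with CoCl2, is therefore missing from the motif comparison. The windows of both members that rose with CoCl2 follow, ABCC2 from chr10:99782390-99782639 on the plus strand and ABCC5 from chr3:184017885-184018134 on the minus strand.
ABCC2: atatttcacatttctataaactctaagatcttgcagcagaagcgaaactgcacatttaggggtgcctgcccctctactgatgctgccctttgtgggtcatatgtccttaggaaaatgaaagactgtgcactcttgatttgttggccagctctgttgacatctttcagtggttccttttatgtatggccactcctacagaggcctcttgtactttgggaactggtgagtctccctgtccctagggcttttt
ABCC5: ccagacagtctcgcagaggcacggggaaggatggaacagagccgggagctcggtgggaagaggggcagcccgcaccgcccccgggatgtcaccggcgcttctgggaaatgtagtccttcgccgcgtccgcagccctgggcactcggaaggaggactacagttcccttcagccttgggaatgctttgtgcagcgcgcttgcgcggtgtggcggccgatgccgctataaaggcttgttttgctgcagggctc
Neither window held any of these letters. Their GC content was 45.6% for ABCC2 and 64.8% for ABCC5. Among 34943 such windows of all genes, 43.2% held ACGTG or GCGTG and 10.9% held TGACNNNGC.

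ABCC6 (chromosome 16, minus strand, 16149565 to 16223522) encodes MRP6, a transporter of liver and kidney whose loss causes pseudoxanthoma elasticum. It had the largest fall of the 9 tested members with CoCl2. Its level was 11.1, 11.5 and 10.9 CPM in the control libraries and 1.74, 1.00 and 1.31 CPM with CoCl2, from 13 to 28 counts per library. With OD it was 11.7, 10.55 and 10.47 CPM, which overlapped the control libraries. The fall with CoCl2 was 8.12-fold (log2 fold change -3.02, standard error 0.15, adjusted p = 4.03e-27), and only 4.07% of all tested genes changed more in size. OD gave a log2 fold change of -0.031, and its 95% interval ran from -0.22 to 0.16.

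ABCC6 has near-identical copies on the same chromosome, ABCC6P1 and ABCC6P2, and how reads fitting several genes were counted is not given in the sources used here, so its level is uncertain. ABCC6P1 also fell with CoCl2, with 50 to 66 counts in the control libraries and 8 to 13 with CoCl2 (log2 fold change -2.21, adjusted p = 3.22e-12). ABCC6P2 fell from 13 to 16 counts to 1 to 4 (log2 fold change -2.10, adjusted p = 9.34e-05). With OD their log2 fold changes were -0.49 (adjusted p = 0.0144) and -0.68 (adjusted p = 0.0898), and neither was called.

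ABCC10 (chromosome 6, plus strand, 43427366 to 43450427) encodes MRP7, an exporter of amphipathic drugs such as taxanes. It shares 0.940% of its exonic bases with DLK2 on the other strand, which had 161 counts in the 9 libraries together. Control libraries held 32.9, 32.8 and 31.1 CPM, CoCl2 libraries 11.1, 9.66 and 11.5 CPM, and OD libraries 30.3, 30.0 and 27.4 CPM. All CoCl2 libraries were far below the others, and the OD libraries lay just under the control libraries without overlap. The fall with CoCl2 was 2.98-fold (log2 fold change -1.57, standard error 0.080, adjusted p = 3.01e-27). With OD the log2 fold change was -0.14, and its adjusted p of 0.0526 did not pass.

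ABCC3 (chromosome 17, plus strand, 50634777 to 50692253) encodes MRP3, the basolateral exporter of glucuronides and bile salts. The control libraries held 24.6, 25.9 and 25.1 CPM, the CoCl2 libraries 10.1, 10.7 and 9.74 CPM, and the OD libraries 26.1, 26.1 and 25.6 CPM. It fell 2.48-fold with CoCl2 (log2 fold change -1.31, standard error 0.082, adjusted p = 8.83e-23). With OD its libraries overlapped those of control cells, and the log2 fold change was 0.041 with a 95% interval from -0.093 to 0.18.

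For the members that fell with CoCl2, the windows of ABCC6, from chr16:16223495-16223744 on the minus strand, and of ABCC10, from chr6:43427291-43427540 on the plus strand, are shown for comparison with those of ABCC2 and ABCC5.
ABCC6: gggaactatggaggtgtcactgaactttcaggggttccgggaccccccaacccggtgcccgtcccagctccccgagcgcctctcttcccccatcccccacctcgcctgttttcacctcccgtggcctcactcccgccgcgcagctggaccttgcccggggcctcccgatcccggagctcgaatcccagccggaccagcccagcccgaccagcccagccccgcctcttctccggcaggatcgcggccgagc
ABCC10: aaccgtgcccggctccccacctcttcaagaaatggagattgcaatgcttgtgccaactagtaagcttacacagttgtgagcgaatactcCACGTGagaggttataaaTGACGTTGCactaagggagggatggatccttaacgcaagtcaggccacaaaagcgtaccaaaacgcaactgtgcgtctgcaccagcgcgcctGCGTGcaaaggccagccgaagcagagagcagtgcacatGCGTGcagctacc
The ABCC6 window held none of the letters. The ABCC10 window held ACGTG 2 times, on opposite strands and overlapping each other, with GCGTG 2 times and TGACNNNGC 1 time. Of the other windows matched, those of ABCB1, ABCC4 and ABCG2 held GCGTG, and that of ABCC4 also held TGACNNNGC. Of the 4 called members with a window, ABCC10 was the one that held any of the letters, and the matches describe sequence only.

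ABCG2 (chromosome 4, minus strand, 88090150 to 88231628) encodes the breast cancer resistance protein, which works as a dimer and exports sulfate conjugates, urate and porphyrins. The control libraries held 35.0, 35.5 and 36.2 CPM, the CoCl2 libraries 56.1, 60.0 and 59.0 CPM, and the OD libraries 61.2, 57.3 and 64.5 CPM. Both treatments lay above control cells without overlap, and they overlapped each other. The level was 1.64-fold higher with CoCl2 (log2 fold change 0.71, standard error 0.058, adjusted p = 1.41e-17) and 1.71-fold higher with OD (0.78, standard error 0.056, adjusted p = 3.18e-19), both short of the fold change required. Under library-size scaling the log2 fold change with CoCl2 was 0.21.

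ABCC1 (chromosome 16, plus strand, 15949138 to 16143257) encodes MRP1, which exports glutathione, its conjugates and leukotriene C4. The control libraries held 40.4, 41.2 and 40.6 CPM, the CoCl2 libraries 53.2, 48.8 and 51.6 CPM, and the OD libraries 73.1, 73.9 and 72.1 CPM. The 3 conditions did not overlap, and OD was the highest. OD gave a 1.79-fold higher level (log2 fold change 0.84, standard error 0.053, adjusted p = 4.78e-22). With CoCl2 the log2 fold change was 0.33 (adjusted p = 3.1e-07), and it turned to -0.17 under library-size scaling.

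ABCC4 (chromosome 13, minus strand, 95019835 to 95301475) encodes MRP4, an exporter of cyclic nucleotides and prostaglandins. Control libraries held 129, 137 and 128 CPM, CoCl2 libraries 73.4, 75.3 and 79.2 CPM, and OD libraries 84.3, 85.4 and 80.6 CPM. Both treatments lay below control cells without overlap. On the log2 scale CoCl2 gave a change of -0.79 (standard error 0.048, adjusted p = 3.37e-23) and OD one of -0.65 (standard error 0.047, adjusted p = 1.8e-19), neither of which was called. Under library-size scaling it was -1.29 with CoCl2 and was called.

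ABCB1 (chromosome 7, minus strand, 87503017 to 87713323) encodes P-glycoprotein, the exporter of many bulky hydrophobic drugs. Its level was 17.0, 15.1 and 15.7 CPM in the control libraries, 18.0, 16.3 and 17.5 CPM with CoCl2, and 9.75, 8.55 and 11.3 CPM with OD. CoCl2 and control libraries overlapped, and all OD libraries were below both. The log2 fold change was 0.12 with CoCl2 (95% interval -0.052 to 0.29, adjusted p = 0.188), and it turned to -0.39 under library-size scaling. With OD it was -0.701, 1.63-fold lower (standard error 0.091, adjusted p = 5.55e-10), which was not called.

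ABCB4, the neighbor of ABCB1 on chromosome 7 (minus strand, 87401696 to 87480435), encodes MDR3, which moves phosphatidylcholine to the outer membrane leaflet of bile canaliculi. It was almost silent. The control libraries held 0, 0 and 1 counts, the CoCl2 libraries 1, 1 and 0 counts, and the OD libraries 8, 7 and 4 counts. The OD libraries were above all others at very low counts. On summed counts, 19 with OD against 1 in control cells, the ratio was 17.0 with an exact 95% binomial interval from 2.71 to 708, which covers counting error only. Without the filter on low counts, edgeR gave a log2 fold change of 3.66 (standard error 1.02, adjusted p = 0.00147) with OD, a call that is lost with the filter because the gene is then not tested.

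**Figure D2:**
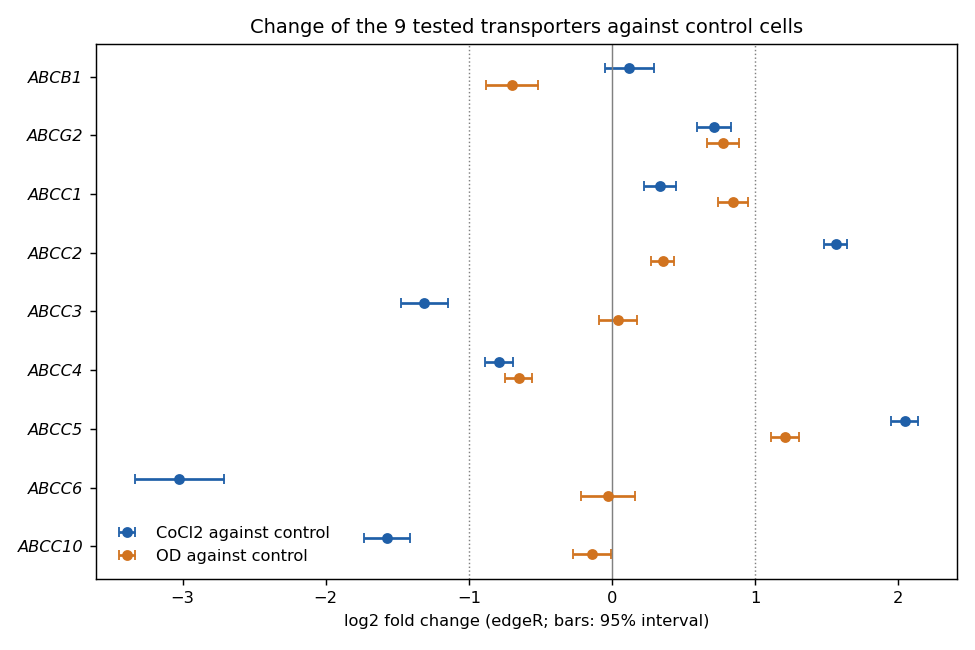
Log2 fold change against control cells (x axis) of the 9 tested transporters with CoCl2 and OD, with bars for the 95% interval and dotted lines at the fold change required for a call. With CoCl2, 2 members lie right of the right line and 3 left of the left line, while with OD only ABCC5, at 1.21, lies outside the lines.

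The direct comparison of CoCl2 with OD called 4 of the 9 members, 1 higher and 3 lower with CoCl2, against 41.3% of all tested genes, 17.5% higher and 23.8% lower (2790 and 3790 genes, or 1351 and 6026 under library-size scaling). By the adjusted p alone 8 of the 9 passed, against 83.5% of all tested genes, and libraries of 8 did not overlap, against 83.8%. The agents were given at different concentrations, so this compares the conditions as used. ABCC2 was higher with CoCl2, with a log2 difference of 1.21 (standard error 0.040, adjusted p = 2.68e-37), though under library-size scaling the difference was 0.66 and was not called. The log2 difference was -1.35 for ABCC3, -2.99 for ABCC6 and -1.43 for ABCC10, all lower with CoCl2, at adjusted p of 9.75e-24, 4.77e-27 and 3.78e-25. ABCC5 and ABCB1 differed by 0.84 (adjusted p = 1.01e-26) and 0.82 (adjusted p = 2.52e-12), higher with CoCl2, and by 0.29 and 0.28 under library-size scaling. ABCC1 was lower with CoCl2 by a log2 difference of -0.51 (adjusted p = 1.59e-13), and ABCC4 by -0.13 (adjusted p = 0.0109), or -1.06 (called) and -0.68 under library-size scaling. For ABCG2 the log2 difference was -0.064 (95% interval -0.17 to 0.045, adjusted p = 0.271), or -0.61 under library-size scaling. ABCB4 had 2 counts with CoCl2 and 19 with OD, and the ratio of OD to CoCl2 was 7.21 with a counting interval from 1.74 to 63.8.

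To set the transporters beside each other, CPM were divided by the length of the exons of each gene in kilobases (CPM per kb). This length joins the exons of all annotated transcripts of a gene, and which transcripts were present was not measured. Orders, shares and ratios between genes depend on it, also where libraries do not overlap. ABCC2 was the most abundant in each condition, with 31.7 ± 0.265 CPM per kb (SD, n = 3) in the control libraries, 93.5 ± 3.601 with CoCl2 and 40.5 ± 0.869 with OD. In control cells the order after ABCC2 was ABCC4 at 15.2, ABCG2 at 6.35, ABCC1 at 4.66, ABCC5 at 4.07, ABCC10 at 3.99, ABCC3 at 2.62, ABCB1 at 2.48 and ABCC6 at 1.62 CPM per kb, with ABCB4 last. Of these neighbors, ABCC5 and ABCC10 overlapped between libraries, as did ABCC3 and ABCB1. With CoCl2, ABCC5 came next to ABCC2 at 16.8 CPM per kb and ABCC4 came after ABCG2 at 8.80, and no neighbors overlapped. With OD, ABCG2 came next to ABCC2 at 10.9 CPM per kb, followed by ABCC4 at 9.67 and ABCC5 at 9.38, whose libraries overlapped. ABCC6 and ABCB1 also overlapped with OD, at 1.58 and 1.54 CPM per kb.

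As a share of the summed CPM per kb of the 10 transporters, which does not depend on the scaling between libraries, ABCC2 took 43.6% ± 0.370 (SD, n = 3) in the control libraries, 66.5% ± 0.518 with CoCl2 and 45.9% ± 0.323 with OD. The share of ABCC4 was 20.9% in the control libraries, 6.26% with CoCl2 and 10.95% with OD. ABCC5 held 5.59%, 11.9% and 10.6% in the same order, and ABCG2 held 8.73%, 7.41% and 12.3%. The summed level itself was 1.93-fold that of control cells with CoCl2 and 1.21-fold with OD, or 1.36-fold and 1.25-fold under library-size scaling. Without ABCC2, control libraries summed to 41.0 ± 0.611 CPM per kb, CoCl2 libraries to 47.1 ± 0.895 and OD libraries to 47.8 ± 0.488, but under library-size scaling CoCl2 turned to the lower side, with 45.6 ± 0.781 in control libraries, 37.0 ± 0.901 with CoCl2 and 54.7 ± 0.345 with OD.

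Ratios within a library compare transporter genes in pairs without any scaling between libraries. With CoCl2 ABCC2 rose and ABCC3 fell, so their ratio describes this pair and not apical against basolateral export. Where the proteins sit in these undifferentiated cells was not measured. The ratio of ABCC2 to ABCC3 per kb was 12.5, 11.8 and 12.04 in the control libraries, 89.9, 80.1 and 95.2 with CoCl2, and 15.1, 14.5 and 15.5 with OD. The 3 conditions did not overlap, and the CoCl2 libraries stood far above the others. For the cyclic nucleotide exporters, the ratio of ABCC5 to ABCC4 was 0.268 ± 0.0107 (SD, n = 3) in the control libraries, 1.90 ± 0.067 with CoCl2 and 0.971 ± 0.035 with OD. For the apical drug exporters, the ratio of ABCG2 to ABCB1 was 2.56 ± 0.177, 3.88 ± 0.318 and 7.15 ± 0.562 in the same order.

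**Figure D3:**
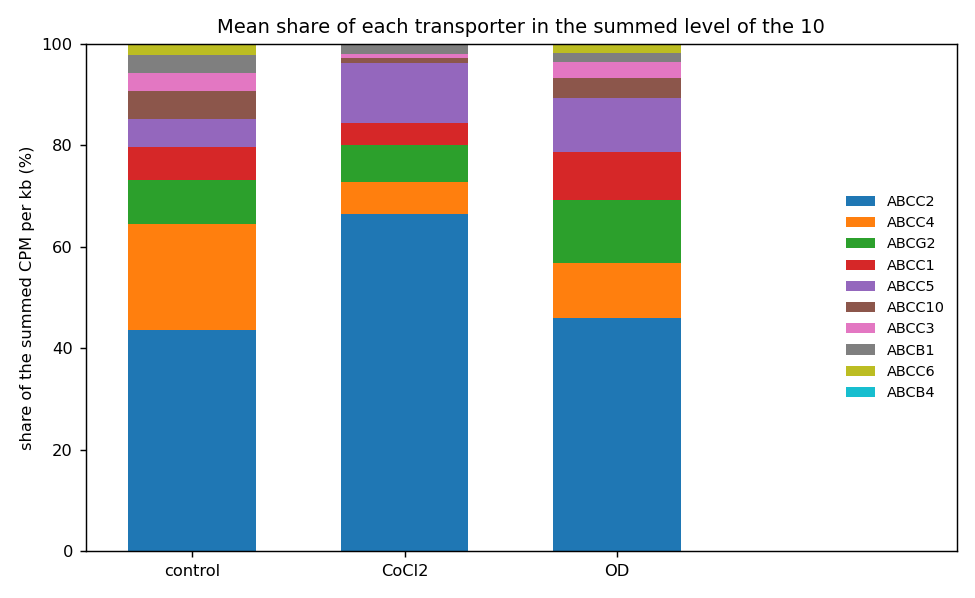
Mean share (y axis, %) of each of the 10 transporters in their summed CPM per kb, in control, CoCl2 and OD libraries (n = 3 each). ABCC2 takes 66.5% with CoCl2 against 43.6% in control cells, and ABCC4 shrinks from 20.9% to 6.26%, while ABCB4 is too low to be seen.

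The other ABC genes of subfamilies B, C and G numbered 18, of which 9 had enough counts to be tested. With CoCl2, 1 of the 9 rose and 4 fell, where 19.9% of all tested genes rose and 23.4% fell. The median log2 fold change was -0.14, or -0.64 under library-size scaling. ABCB6, a porphyrin transporter, rose with a log2 fold change of 2.01 (adjusted p = 8.47e-30). The largest falls were those of CFTR, the apical chloride channel, at -2.85, of ABCB10, a mitochondrial transporter of heme-forming cells, at -2.52, and of ABCC9, a subunit of ATP-sensitive potassium channels, at -2.28. TAP2, which loads peptides for antigen presentation, was the other fall, at -1.06. With OD, 2 rose and 0 fell by edgeR and by DESeq2, with 3 lower at an unadjusted p below 0.05, around a median of 0.31, where 13.3% of all tested genes were called. These were TAP1, the partner of TAP2, at 1.65 (adjusted p = 2.81e-16), and ABCB9, a lysosomal peptide transporter, at 1.25 (adjusted p = 3.33e-12). In the direct comparison 7 of the 9 were called, against 41.3% of all tested genes, with ABCB6 higher with CoCl2, a call lost under library-size scaling, and the other 6 lower.

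Of 20 genes of subfamilies A, D, E and F, 11 were tested, and 3 were called with CoCl2 and 3 with OD, against 43.2% and 13.3% of all tested genes. ABCF3, a cytosolic protein without membrane domains, rose with CoCl2, with a log2 fold change of 1.55. ABCA3, a phospholipid transporter of surfactant-making cells, and ABCA7 fell, with log2 fold changes of -2.97 and -1.18. Under library-size scaling, ABCD3, ABCE1 and ABCA2 were called lower as well. With OD, ABCA5 and ABCA2 rose, with log2 fold changes of 1.53 and 1.01, and ABCE1, the ribosome recycling factor, fell, with one of -1.11. The median of the 11 was -0.40 with CoCl2, or -0.903 under library-size scaling, and -0.16 with OD. Between the treatments 6 of the 11 were called, against 41.3% of all tested genes, and ABCF3 was the one that was higher with CoCl2.

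**Figure D4:**
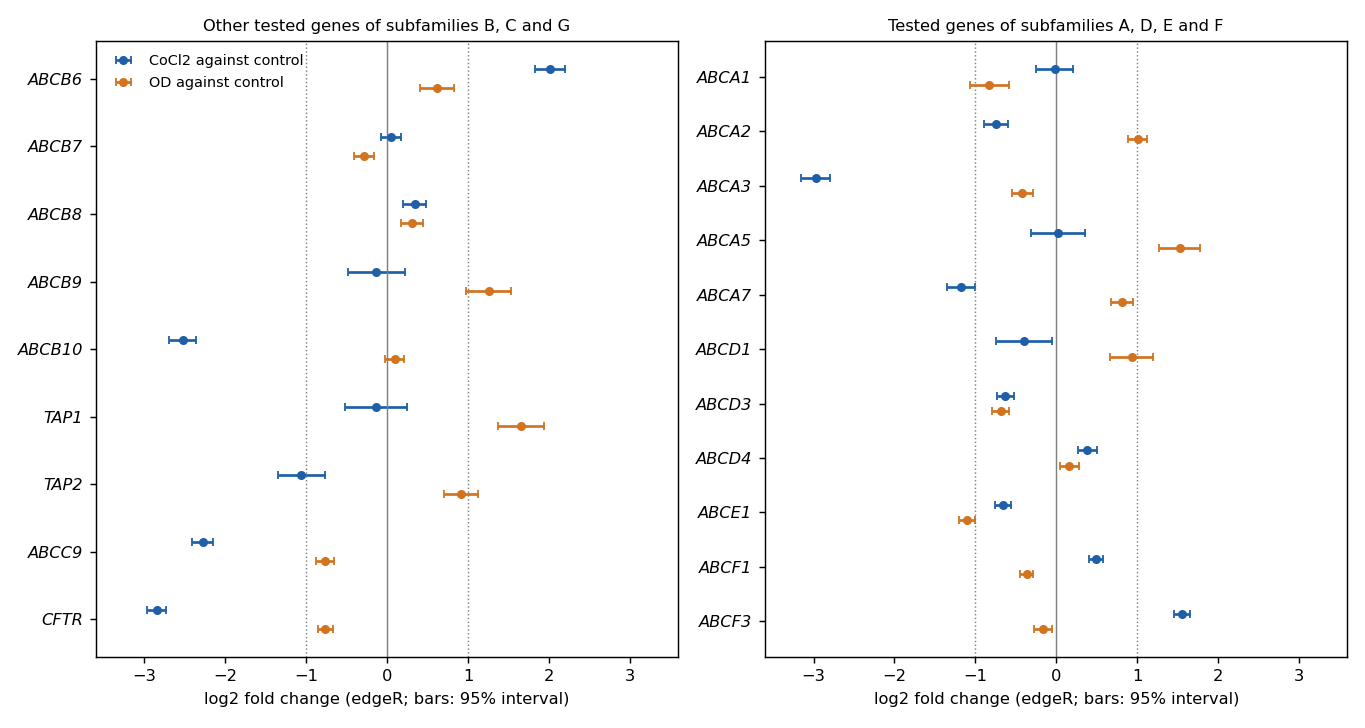
Log2 fold change against control cells (x axis) with CoCl2 and OD for the tested ABC genes outside the 10 transporters, 9 of subfamilies B, C and G (left) and 11 of subfamilies A, D, E and F (right). Bars are the 95% interval and dotted lines the fold change required for a call. CFTR at -2.85 and ABCA3 at -2.97 lie farthest to the left, both with CoCl2.

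Factors known to act on efflux transporter genes were followed as a list of 23, of which 22 were tested. With CoCl2, 8 rose and 4 fell around a median of 0.41 that NR1H4 at its bound leaves in place, and under library-size scaling 3 were called higher and 5 lower around -0.0996. Over all tested genes 19.9% rose and 23.4% fell. NR1H4, the bile acid receptor FXR, had no count in control cells but 91 to 119 per library with CoCl2, which was at least 40.4-fold higher with 3 counts per control library as the floor. AHR, the aryl hydrocarbon receptor, and NFE2L2, the antioxidant factor NRF2, had log2 fold changes of 1.69 and 1.57. The falls included those of VDR, the vitamin D receptor, at -1.999 and of NR1I3, the xenobiotic receptor CAR, at -1.19. NR1I3 had low counts, 27 to 30 per control library and 5 to 17 with CoCl2. With OD only EPAS1, which encodes HIF-2 alpha, was called, with a log2 fold change of 1.11 (adjusted p = 7.84e-31), against 13.3% of all tested genes. It also rose with CoCl2, with a log2 fold change of 1.30, a call lost under library-size scaling. In the direct comparison 4 of the 22 were higher and 4 lower with CoCl2 around a median of 0.37, against 17.5% and 23.8% of all tested genes, but under library-size scaling 1 was higher and 8 lower around -0.18. Whether these factors had a part in the transporter changes was not tested.

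Proteins that anchor apical transporters to the cytoskeleton made a list of 6, with 5 tested. SLC9A3R2 and PDZK1, both PDZ scaffold proteins, fell with CoCl2, with log2 fold changes of -1.30 (adjusted p = 2.98e-16) and -1.23 (adjusted p = 1.56e-09). These falls are 2 of the 5, against 43.2% of all tested genes called, and under library-size scaling RDX was called lower as well. With TMM factors EZR and SLC9A3R1 were higher with CoCl2, with log2 fold changes of 0.81 (adjusted p = 9.47e-29) and 0.42 (adjusted p = 1.17e-13). Neither was called. Changes with CoCl2 are lower under library-size scaling, as the medians below show. The values of EZR and SLC9A3R1 under it are not given here, so their direction is less certain. The median was -0.92 with CoCl2, or -1.43 under library-size scaling, and 0.031 with OD, and with OD edgeR and DESeq2 each called 0 of the 5, of which 3 had an unadjusted p below 0.05, where 13.3% of all tested genes were called.

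Enzymes that form glutathione or conjugates for the MRP transporters made a list of 20, with 11 tested. With CoCl2, 2 rose and 4 fell, around a median of 0.28 that was -0.23 under library-size scaling, which gave 2 higher and 5 lower. Over all tested genes 43.2% were called. GCLM and GCLC, the subunits of the rate-limiting enzyme of glutathione synthesis, rose with log2 fold changes of 3.55 and 1.96. GSS, the enzyme of the last step, fell with a log2 fold change of -1.78, and SULT2A1 and UGT2A3 fell with -1.47 and -1.23. The remaining fall, that of SULT1A1 at -1.02, was lost with RLE factors and with DESeq2. With OD edgeR and DESeq2 each called 0 of the 11, of which 6 had an unadjusted p below 0.05, against 13.3% of all tested genes called, and the median was -0.27. The UGT1A genes share exons, so their counts are uncertain.

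Other drug and bile acid carriers of enterocytes made a list of 18, with 14 tested. With CoCl2, 1 rose and 5 fell, around a median of -0.72, where 43.2% of all tested genes were called. Under library-size scaling 1 was called higher and 8 lower, around a median of -1.22. With OD, 2 rose and 1 fell, where 13.3% of all tested genes were called. SLC16A3, the lactate exporter MCT4, rose with a log2 fold change of 1.56, and 2.93 with OD. SLC19A1, the reduced folate carrier, SLC22A3, an organic cation transporter, and SLC29A1, a nucleoside transporter, fell with CoCl2 with log2 fold changes of -3.14, -3.14 and -2.94. SLC22A3 had low counts, 26 to 31 per control library and 2 to 4 with CoCl2. SLC15A1, the peptide transporter PEPT1, fell with CoCl2 at -1.14 and rose with OD at 1.76, and the direct log2 difference was -2.90 (adjusted p = 7.62e-37). SLC28A3, a nucleoside transporter, fell with OD, with a log2 fold change of -1.51. In the direct comparison 8 of the 14 were called, all lower with CoCl2, against 23.8% of all tested genes lower, and 9 were called lower under library-size scaling.

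The nearest patterns to 4 transporters were sought among the 13427 tested genes whose mean was 1 CPM or more. The measure was the Euclidean distance over the 9 libraries of log2 CPM less its control mean, so that smaller is nearer. For ABCC2 the nearest genes were KDM5A, PTTG1IP and VDAC2, at distances of 0.101, 0.104 and 0.118. For ABCC3 they were MYO15B, MND1 and FANCI, at 0.125, 0.152 and 0.215. ABCG2 was nearest to VAMP1, CYTH2 and KIZ, at 0.171, 0.191 and 0.210. ABCB1 was nearest to SNRNP35, AATF and PPIG, at 0.171, 0.246 and 0.258. None of these 12 genes is an ABC transporter, and the libraries, their depth and the control mean are shared by all of them.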

How the data were processed

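Libraries of uCaco-2 cells (3 control, 3 CoCl2, 3 OD) were made from poly(A)-selected RNA and read from a single end. Per the labels and the study's methods, the authors trimmed adapters (cutadapt 2.10), mapped reads to GRCh38.p13 (STAR 2.7.5b) and deposited raw counts per gene symbol, with no normalization. The counting tool, its strand setting and its rule for multi-mapped reads are not given in the sources used here.

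TMM factors, the expression filter (15944 of 60591 symbols kept) and a robust quasi-likelihood model over the 9 libraries, with 1 mean per condition, were computed from the counts with edgeR 4.0.16 (R 4.3.3). P-values were adjusted by Benjamini-Hochberg over all tested genes and measure the spread between libraries of 1 cell line. No 2 replicates agreed within sampling noise (chi-square over its degrees of freedom 1.82 to 3.32). Exon lengths and positions came from GENCODE release 44 on GRCh38, and promoter windows from RefSeq on GRCh38.p14. The members and lists were chosen with earlier results of these data known. Named genes are the members and, per list and comparison, up to 3 of the largest rises and falls among called genes, with the 3 genes nearest in pattern to ABCB1, ABCC2, ABCC3 and ABCG2. The values of 1 gene under this rule are not reported here. TAP2, SULT1A1, the marker genes, the ABCC6 copies, ABCC5-AS1, DLK2 and the genes named for a call under another scaling were chosen after their values were seen. On simulated data of 15478 genes for CoCl2 against control, edgeR recovered 100 of 100 genes changed by 2 on the log2 scale. It also recovered 100 of 100 changed by 3, and called 3 unchanged genes. Changes nearer the threshold of 1, where several members lie, were not simulated. With 200 genes changed, where 43.2% of tested genes were called with CoCl2, the simulation cannot judge the scaling. The alternatives were DESeq2 1.42.0, other scalings, filters and thresholds, thinned counts, the replicate block and each library left out.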

Additional observations from a re-analysis of the deposited data

How the results depend on the processing

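The log2 fold changes of the 9 tested transporters had the same sign, and by the 2 thresholds together the same call, in all 3 comparisons with DESeq2 on 9 or 6 libraries, edgeR on 6 libraries, RLE factors, both other filters, glmTreat, thinned counts and the replicate block. Under library-size scaling ABCB1 and ABCC1 with CoCl2 turned to -0.39 and -0.17, and ABCC6 with OD to 0.0092, ABCC4 became called with CoCl2 and ABCC1 between the treatments, and ABCC2 lost its call between the treatments. Leaving out single libraries turned 1 sign, that of ABCC6 with OD, which ranged from -0.086 to 7.77e-05 and was not called.

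With the adjusted p alone, 8, 6 and 8 of the 9 transporters passed for CoCl2, OD and CoCl2 against OD, and 13260, 10466 and 13311 of all genes, since this drops the fold change. With OD, 1134 genes were called when every library needed at least 10 counts, which tests fewer genes, and 965 with glmTreat, in place of 2113. Without a filter ABCB4 was tested and called too, so 2 transporters were called with OD. What same-numbered replicates share is not given in the labels. Deviations of same-numbered libraries had correlations from -0.0049 to 0.038 and those of others from -0.047 to 0.025. All were small but leaned to the same number, and libraries correlated best with their own number in 10 of 18 cases. The replicate block called 6901, 2115 and 6568 genes in place of 6891, 2113 and 6580, with 5, 1 and 4 transporters in either fit. ABCB4 had no more than 8 counts per library, too few to pass the filter used.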
